A study of Mus musculus with 25 samples.

Results

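A set of 10 genes of apolipoprotein and lipid efflux biology were followed through RNA sequencing of cultured mouse cortical astrocytes. The set is the rows of the deposited table whose gene name is Apoe, Clu, Apoc1, Abca1, Abcg1, Lcat, Lpl, Pltp, Nr1h3 or Lrp1, 10 of 54429 entries, and each name was found once. All cells came from the cortex of C57BL/6J mice and were captured on plates coated with an antibody to HepaCAM, an adhesion protein of astrocytes, before culture. The 25 libraries form 9 groups. Cells that received an EGFR inhibitor, and cells that received DMSO as its control, gave 3 libraries each. A P53 inhibitor and its own DMSO control gave 3 libraries each. Both inhibitors were put into the medium on day 2 in vitro. HBEGF, a ligand of EGFR, was either present in the culture or withdrawn from it, with 2 libraries for each condition, and that choice was made on the day of preparation. Cultures with no treatment named were sampled on days 2, 7 and 14 in vitro, with 3 libraries per day. The sources used here do not give the age of the mice, the identity and dose of the inhibitors, the harvest day of the treated cells or where the replicates come from. The p-values thus refer to the spread among these libraries alone, and that spread may be technical.

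Astrocytes are a main source of the lipoprotein particles of the brain, which resemble high-density lipoprotein. The apolipoproteins apoE and clusterin (encoded by Apoe and Clu) form the protein shell, and the transporters ABCA1 and ABCG1 load it with cholesterol and phospholipid from the cell. LCAT then esterifies the cholesterol, PLTP moves phospholipid between particles, lipoprotein lipase (Lpl) hydrolyses their triglyceride, and LRP1 takes particles up into cells. The nuclear receptor LXR alpha (Nr1h3) is activated by oxysterols and is known to induce Abca1, Abcg1 and Apoe.

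Counted reads per library ranged from 4009497 to 9689179 with a median of 6106536, and between 8903 and 9865 genes reached an RPKM of 1. The RPKM values appear to have been divided by the whole gene span, introns included. Levels of different genes are therefore compared here as RPKM recomputed with the exon length. This assumes that the counted reads lay in exons, which no source used here states. If reads of introns were counted, levels of genes with long introns, such as Abca1 and Abcg1, would be overstated. Each comparison used limma on log2(RPKM + 1) over 13850 genes that reached an RPKM of 1 in 2 or more libraries, and a gene was called at a Benjamini-Hochberg adjusted p below 0.05. This scale understates the change of genes with low values, so folds are given as ratios of mean RPKM. Of the 10 genes 7 passed the filter. Lpl passed through only 2 libraries (EGFR DMSO replicate 1 and HBEGF withdrawal replicate 2) and Pltp through only 3 (EGFR inhibitor replicate 1 and both withdrawal libraries), which are in groups where they are high. Counts over the 7 are therefore a description. So are the limma p-values of Lpl and Pltp in comparisons that hold those groups. Apoc1, Abcg1 and Nr1h3 did not pass. They were tested in the same model without the filter (35203 genes) and by limma's voom on reads recovered from the RPKM (18018 genes, all 10 members among them).

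The promoter windows of 2 members show what lies upstream of a transporter gene and a carrier gene that both rise below. They are the 250 bases before the transcription start in RefSeq's GRCm38.p6 annotation, on the strand of the gene, and capitals mark matches to 2 motifs. The first motif is a direct repeat with a gap of 4, the kind of element that LXR and its partner RXR bind, searched on both strands as 2 copies of NGGTNA with 4 bases between them. The second is TATAAA, also searched on both strands.
Abca1, chr4:53159896-53160145, minus strand: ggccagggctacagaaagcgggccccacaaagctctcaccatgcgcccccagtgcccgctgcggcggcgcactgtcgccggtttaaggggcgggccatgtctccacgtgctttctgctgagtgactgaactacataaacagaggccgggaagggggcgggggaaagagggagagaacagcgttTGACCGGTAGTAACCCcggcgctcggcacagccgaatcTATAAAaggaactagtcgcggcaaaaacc
Apoe, chr7:19699189-19699438, minus strand: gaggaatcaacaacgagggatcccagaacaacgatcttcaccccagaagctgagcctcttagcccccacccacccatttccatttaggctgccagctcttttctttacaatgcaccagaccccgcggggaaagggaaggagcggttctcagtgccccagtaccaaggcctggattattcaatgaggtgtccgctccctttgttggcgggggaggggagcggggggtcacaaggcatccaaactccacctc
The Abca1 window held the direct repeat on the strand opposite to the gene, 67 to 52 bases before the start, and TATAAA 29 to 24 bases before it, with no overlap between them. The direct repeat was present in 204 of 32851 windows of this length (0.621%), and TATAAA in 12.368%. RefSeq windows were matched for 6 members (Apoe, Abca1, Lcat, Pltp, Nr1h3 and Lrp1, 9 windows in all). Of these 9 the Abca1 window alone held the direct repeat, and a second Apoe window held TATAAA. The GC box GGGCGG, searched on both strands, lay in 3 of the 9 windows (Abca1, Lrp1 and Pltp) against 32.742% of all windows. Clu, Apoc1, Abcg1 and Lpl had no entry. A match is a description of letters and not of a bound site.

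Positions follow GRCm38 and GENCODE M21. Apoe (ENSMUSG00000002985.16) lies on chromosome 7 from 19696109 to 19699188, beside Apoc1 (ENSMUSG00000040564.14, 19689481 to 19692660). Clu (ENSMUSG00000022037.15) lies on chromosome 14 from 65968483 to 65981547. Abca1 (ENSMUSG00000015243.4) spans 129109 bases on chromosome 4, from 53030787 to 53159895, with 10363 bases of exon, so that its deposited RPKM is 12.46 times lower than a value per exon length. Lpl (ENSMUSG00000015568.16) lies on chromosome 8 from 68880491 to 68907448. The other 5 members share bases with a neighbouring gene. No source used here says whether the counting used strand, so reads in the shared bases may be counted for the wrong gene or left out. Abcg1 and Nr1h3 each share bases with a gene on their own strand, which a strand setting would not separate. Pltp (ENSMUSG00000017754.13, chromosome 2, 164839518 to 164857711) overlaps Ctsa on the opposite strand. Lcat (ENSMUSG00000035237.7, chromosome 8, 105939551 to 105943382) and Lrp1 (ENSMUSG00000040249.15, chromosome 10, 127538161 to 127621148) each overlap an antisense gene. Abcg1 (ENSMUSG00000024030.7, chromosome 17, 31057675 to 31117988) holds a predicted ribosomal RNA gene on its own strand, and Nr1h3 (ENSMUSG00000002108.10, chromosome 2, 91184061 to 91202834) overlaps 2 noncoding genes.

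Per exon length Apoe was the most abundant of the 10 genes in the mean of every group. Its median over the 25 libraries was an exon-length RPKM of 212, against 50.9 for Abca1, 25.7 for Lrp1 and 15.5 for Clu. Lcat (2.97), Abcg1 (1.83), Pltp (1.71), Lpl (1.65) and Apoc1 (1.33) formed a low group, and Nr1h3 was lowest at 0.356. By the deposited RPKM the order differed, with Lrp1 before Abca1 and Abcg1 near the bottom, since the introns of the transporters are long. Among 53713 genes ranked per exon length, Apoe took ranks 16, 23 and 28 in the day 14 libraries and 16, 17 and 17 with the EGFR inhibitor. On day 2 its ranks were 737, 2427 and 1764. Apoe thus covered a 46.8-fold range of RPKM across libraries and Clu a 51.8-fold range, while Lrp1 covered only 2.59-fold.

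**Figure D1:**
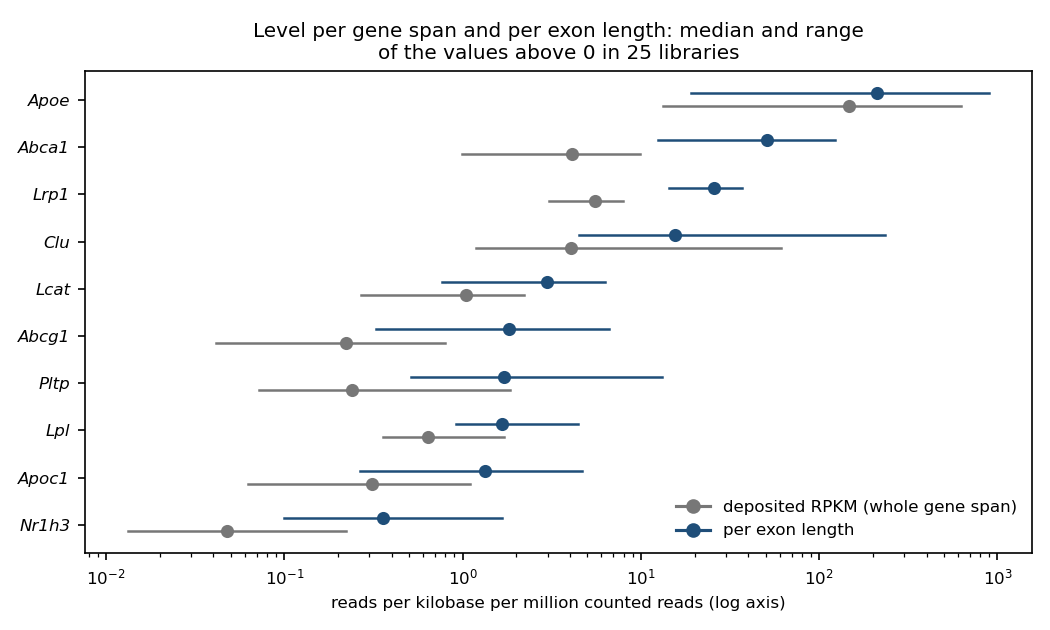
Median (points) and range over the 25 libraries (lines, values above 0 only) of each gene's level, as deposited RPKM per whole gene span (grey) and per exon length (blue), on a log axis of RPKM. Apoe is highest on both scales, and Abca1 moves from a median of 4.08 to 50.9 when exon length is used.

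In every group 11 of 12 astrocyte markers had a mean RPKM of at least 1. The list of 6 oligodendrocyte precursor markers also met that level, with 3 of 6 genes in the P53 inhibitor group and 5 or 6 of 6 in each other group. Except with the EGFR inhibitor and after withdrawal, its summed deposited RPKM was above that of the astrocyte list in every library. As deposited RPKM appears to be divided by the gene span, these sums do not show which list had more RNA. Marker lists of other cells differed between groups. The summed RPKM of 22 microglia or macrophage markers was 7.72 to 12 with the EGFR inhibitor against 2.11 to 3.59 with DMSO, and 22.8 and 40.6 after HBEGF withdrawal against 2.39 and 1.07 with HBEGF. Lyz2 and Cd68 rose in both comparisons. The other 3 tested members, C1qc, Fcer1g and Tyrobp, passed the filter only through EGFR inhibitor or withdrawal libraries, so their higher levels there are a description, while Tmem119 and Pf4 were at 0 in both treated groups and Cx3cr1 was near 0 (0.00374 and 0.00373). The 6 oligodendrocyte markers summed to 26.8 and 29.3 after withdrawal against 17.6 and 8.65, with Mobp and Mag passing the filter through the withdrawal libraries alone. The 8 neuron markers summed to 3.83 to 5.09 with the EGFR inhibitor against 0.795 to 0.862, and the 7 pericyte or smooth muscle markers to 13.5 and 20.1 after withdrawal against 4.36 and 5.44. Most of the neuron sum was Tubb3 (mean 3.03 against 0.159) and Dcx (1.01 against 0.164). Most of the pericyte or smooth muscle sum was Acta2 (14.2 against 3.72). Pdgfrb was called higher after withdrawal as well (1.51 against 0.199), and Tagln was not called. Both sums thus describe few genes and not a cell type. The oligodendrocyte precursor markers, almost all of it Olig1 and Olig2, summed to 114 to 137 with the EGFR inhibitor against 322 to 418, and to 92.5 and 98.7 after withdrawal against 418 and 391. Of these 6 genes limma called 3 lower (Olig1, Olig2 and Cspg4) and 1 higher with the EGFR inhibitor. The gene called higher was Gpr17 (log2 change 1.834 ± 0.367 SE, adjusted p = 0.0006579). After withdrawal 3 were called lower (Olig1, Olig2 and Pdgfra) and 0 higher. The astrocyte list itself summed to 412 to 434 with the EGFR inhibitor against 140 to 174, and to 308 and 343 after withdrawal against 156 and 148. On days 2, 7 and 14 it summed to 93.4 to 127, 153 to 207 and 163 to 267. Its genes did not all rise with the treatments. Of 11 tested, limma called 7 higher and 1 lower (Aldh1l1) with the EGFR inhibitor, where 16.3% and 22.2% of all genes were. After withdrawal 5 were called higher and 2 lower (Aldh1l1 and Slc1a3), where 10.0% and 22.5% of all genes were. In such bulk samples fewer cells of a type and less RNA per cell cannot be told apart. Mitochondrial ribosomal RNA took 23.4% of reads with the EGFR inhibitor against 18.7%, and 28.9% after withdrawal against 17.7%. The part of the marker shifts in the results below was not tested. Fits without mitochondrial genes are named where they changed a call.

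**Figure D2:**
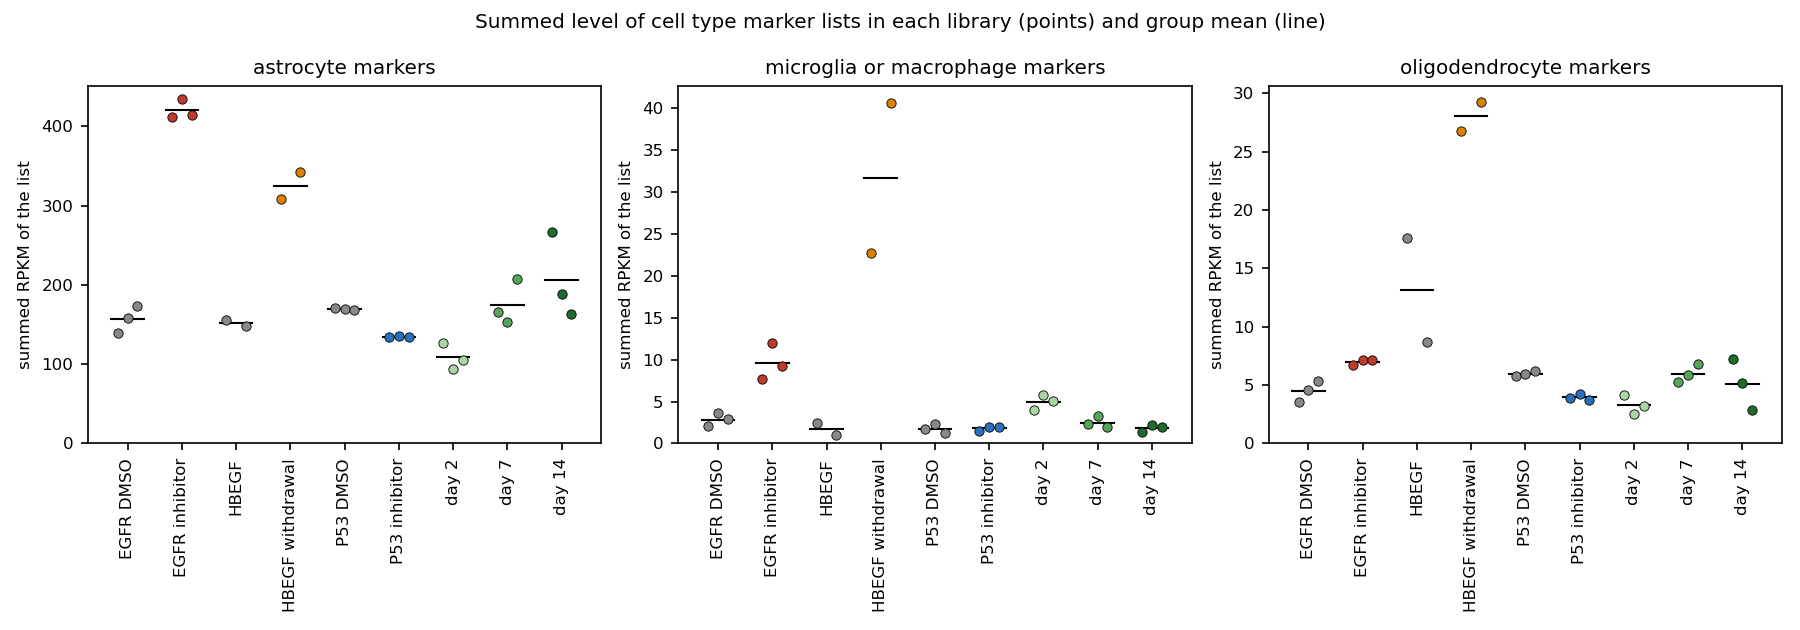
Summed RPKM of the astrocyte, microglia or macrophage and oligodendrocyte marker lists in each library (points; short lines are group means), by group. Astrocyte markers are highest with the EGFR inhibitor (412 to 434), and microglia markers are highest in the 2 withdrawal libraries (22.8 and 40.6).

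The EGFR inhibitor was compared with DMSO to ask how loss of EGFR signalling changes these genes. The particle shell genes Apoe and Clu, the transporters Abca1 and Abcg1, the phospholipid transfer gene Pltp and the receptor gene Lrp1 were higher with the inhibitor, and the 2 enzyme genes Lcat and Lpl were lower. By limma 7 of the 7 members tested were called, 5 higher and 2 lower, in a comparison in which 38.5% of all tested genes were called (16.3% higher and 22.2% lower). Over all 10 members voom called 9, of which 7 were higher and 2 lower, against 46.9% of all genes (24.0% higher and 22.8% lower), and their median log2 change was 1.47 against 0.06 for all genes. Median-of-ratios scaling turned the split of all calls from 2261 higher and 3076 lower to 2752 and 2635. The median change of the 2354 genes whose mean RPKM was 5 or more was -0.33 as deposited and -0.22 after that scaling. The 6 increases named above kept their direction under both.

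Apoe stood at 537, 520.2 and 504 RPKM in the 3 inhibitor libraries and at 87.2, 116 and 113 in the DMSO libraries. The groups were far apart, with a 4.95-fold difference of means (log2 change 2.31 ± 0.30 SE, adjusted p = 1.015e-05). Clu read 28.8, 30.2 and 22.6 RPKM with the inhibitor. In DMSO it read 2.82, 2.997 and 2.98, so every inhibitor library was above every control. Its 9.28-fold rise was the largest fold among the 10 genes here (log2 change 2.83 ± 0.37 SE, adjusted p = 1.14e-05). Apoc1, a small apolipoprotein encoded beside Apoe, rested on 33 reads against 16 and its groups overlapped: 0.486, 1.1 and 0.164 RPKM against 0.0994, 0.330 and 0.268 (adjusted p = 0.242 without the filter). Without EGFR inhibitor replicate 3 that test gave Apoc1 an adjusted p of 0.0441.

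Abca1 measured 9.64, 8.85 and 8.91 RPKM in the inhibitor libraries against 3.33, 3.87 and 4.04 in DMSO. There was no overlap, and the means differed 2.44-fold (log2 change 1.10 ± 0.15 SE, adjusted p = 1.465e-05). Abcg1 had 0.408, 0.542 and 0.427 RPKM with the inhibitor (487 reads in all) and 0.0871, 0.103 and 0.138 without it (143 reads). Both transporters thus rose in every inhibitor library, Abcg1 by 4.19-fold (voom log2 change 2.04 ± 0.31 SE, adjusted p = 4.914e-06). Without the filter limma also called Abcg1 (adjusted p = 0.00117), but not when the EGFR libraries were fitted alone (adjusted p = 0.846). The LXR gene Nr1h3 itself was barely detected, with 12, 16 and 24 reads against 4, 5 and 10. Its 3.42-fold difference was called by voom (log2 change 1.65 ± 0.58 SE, adjusted p = 0.0199). That Nr1h3 call did not hold without EGFR DMSO replicate 1 (adjusted p = 0.0674), EGFR DMSO replicate 2 (0.0607) or EGFR inhibitor replicate 3 (0.0812).

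Pltp gave 1.08, 0.824 and 0.734 RPKM with the inhibitor and 0.243, 0.124 and 0.194 in DMSO. The libraries did not overlap, and Pltp rose 4.71-fold (log2 change 0.66 ± 0.11 SE, adjusted p = 7.885e-05). As Pltp passed the filter only through this group and withdrawal, that p-value is a description. Voom, with its own filter on reads, gave 2.245 ± 0.318 SE (adjusted p = 1.001e-06). Lcat went the other way, from 1.73, 1.41 and 1.17 RPKM in DMSO to 0.269, 0.391 and 0.317 with the inhibitor. The lowest control lay well above the highest treated library, although only 22 reads against 115 support the 4.42-fold fall (log2 change -0.87 ± 0.20 SE, adjusted p = 0.00173). Lpl fell 1.64-fold, from 1.19, 0.879 and 0.934 to 0.522, 0.599 and 0.714 RPKM (log2 change -0.31 ± 0.11 SE, adjusted p = 0.0375). Lrp1 rose 1.41-fold, from 3.79, 4.26 and 4.13 to 5.99, 5.64 and 5.51 RPKM (log2 change 0.41 ± 0.14 SE, adjusted p = 0.0286). For both genes the groups did not overlap, yet neither call held when any of 4 libraries was removed. The adjusted p of Lpl and Lrp1 was 0.157 and 0.0917 without EGFR DMSO replicate 1, 0.0588 and 0.0568 without EGFR DMSO replicate 3, 0.118 and 0.0822 without EGFR inhibitor replicate 1, and 0.0811 and 0.0582 without EGFR inhibitor replicate 2. Lpl was also not called after median-of-ratios scaling (adjusted p = 0.081), without mitochondrial genes (0.0697) or with the EGFR libraries fitted alone (0.0512).

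**Figure D3:**
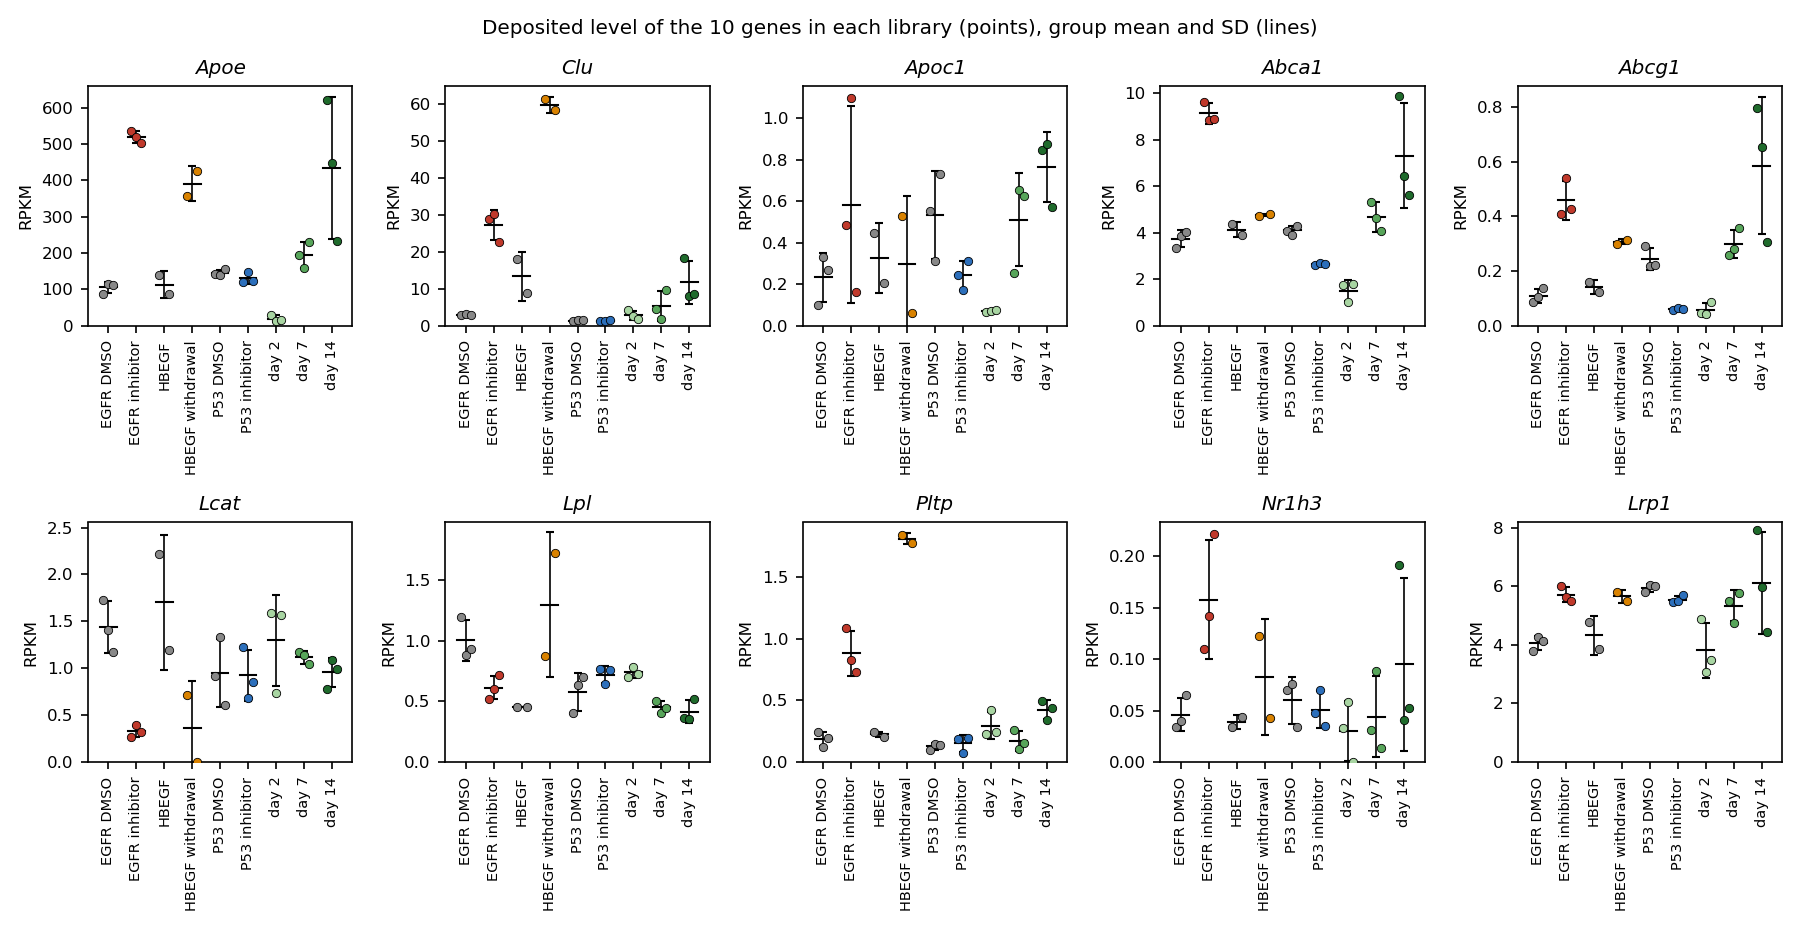
RPKM of the 10 genes in each of the 25 libraries (points), with the group mean and SD (lines; SD bars that would pass below 0 are cut at the axis), on a separate axis from 0 for each gene. Apoe is near 520.3 RPKM in the 3 EGFR inhibitor libraries, and Clu and Pltp are highest in the 2 HBEGF withdrawal libraries.

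HBEGF withdrawal was compared with continued HBEGF, 2 libraries against 2, to ask what removal of the ligand does. Apoe, Clu, Pltp and Lpl were higher after withdrawal and Lcat was lower, while Abca1 and Lrp1 did not pass the test. By limma 5 of the 7 members tested were called, 4 higher and 1 lower, where 32.6% of all tested genes were called (10.0% higher and 22.5% lower). Voom called 6 of all 10 members, 5 higher and 1 lower, against 38.3% of genes (16.6% higher and 21.7% lower), with a median log2 change of 1.02 against -0.08 for all genes. After median-of-ratios scaling all calls divided into 2146 higher and 1988 lower in place of 1390 and 3121, and the median change of the 2354 well expressed genes went from -0.45 to -0.22. Fitted on these 4 libraries alone, limma called 0 members and 0 genes, although 3 members and 3926 genes had an unadjusted p below 0.05. The calls therefore borrow their estimate of spread from the other groups.

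Apoe rose 3.46-fold, from 140 and 86.4 RPKM with HBEGF to 357 and 425 after withdrawal (log2 change 1.82 ± 0.36 SE, adjusted p = 0.000864). Clu read 61.3 and 58.4 RPKM after withdrawal, its highest values in the data set, against 18.1 and 8.69. The 4.46-fold difference (log2 change 2.16 ± 0.45 SE, adjusted p = 0.00126) left both HBEGF libraries above all 3 EGFR DMSO libraries. Apoc1 was not resolved, with 11 and 1 reads against 11 and 4. Pltp rose 8.10-fold, from 0.240 and 0.207 to 1.84 and 1.78 RPKM, also its highest values in any group (log2 change 1.2 ± 0.13 SE, adjusted p = 2.825e-06). That p-value is a description, as Pltp passed the filter through these withdrawal libraries and an EGFR inhibitor library alone. For Pltp voom gave 2.99 ± 0.35 SE (adjusted p = 6.599e-08). No library of one condition overlapped the other for Apoe, Clu or Pltp. The same was true of Abca1, Abcg1 and Lrp1, which limma did not call, so with 2 libraries against 2 such separation says little. The share of all genes without overlap was not computed. Without each library in turn the log2 change was 1.475 to 2.161 for Apoe, 1.669 to 2.65 for Clu and 1.18 to 1.22 for Pltp.

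Beside Pltp, Foxj1, a regulator of motile cilia, was the 1 tested gene of the 6 choroid plexus or ependymal markers. That list summed to 29.7 and 35.7 RPKM after withdrawal against 4.01 and 5.85, and to 14.8 to 19.4 with the EGFR inhibitor against 2.46 to 2.78, with Ttr at 0 in EGFR DMSO, HBEGF and withdrawal. Almost all of each sum was Foxj1, with means of 32.3 against 4.87 RPKM after withdrawal and 17.1 against 2.57 with the inhibitor. The sums thus describe 1 gene and not a cell type. Lpl went from 0.453 and 0.455 RPKM with HBEGF to 0.874 in withdrawal replicate 1 and 1.72 in withdrawal replicate 2 (2.85-fold, log2 change 0.63 ± 0.14 SE, adjusted p = 0.00182). The 2 withdrawal libraries thus differ in Lpl, and replicate 2 is also the one with the larger microglia marker sum, 40.6 against 22.8. Without it the Lpl change was 0.37 (adjusted p = 0.0582). Whether cells other than astrocytes supply part of the Lpl or Apoe reads was not tested.

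Lcat fell from 2.21 and 1.196 RPKM to 0.718 in withdrawal replicate 1 and 0 in withdrawal replicate 2, that is from 66 and 28 reads to 18 and 0 (log2 change -1.02 ± 0.24 SE, adjusted p = 0.00333). The groups did not overlap, but the Lcat call was lost without HBEGF replicate 1 (adjusted p = 0.06) or withdrawal replicate 2 (0.0846). Abca1 hardly differed, at 4.71 and 4.79 RPKM against 4.37 and 3.90 (log2 change 0.17 ± 0.18 SE, adjusted p = 0.539). Abcg1 stood at 0.3002 and 0.315 RPKM against 0.159 and 0.124. For Abcg1 voom called the 2.17-fold difference (log2 change 1.09 ± 0.38 SE, adjusted p = 0.0227) and limma without the filter did not (adjusted p = 0.184). Nr1h3 had 15 and 4 reads against 5 and 5, which shows no separation. Lrp1 measured 5.81 and 5.49 RPKM against 4.79 and 3.85 and missed the threshold (log2 change 0.33 ± 0.17 SE, adjusted p = 0.169), but it passed after median-of-ratios scaling (0.0232) and without mitochondrial genes (0.033).

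The difference between the EGFR inhibitor change and the withdrawal change was tested directly in the same fit, where 1.83% of genes were called. It was called for 2 of the 7 members tested, Abca1 and Lpl. Abca1 changed by 1.10 with the inhibitor and 0.17 after withdrawal, a difference of 0.93 ± 0.23 SE on the log2 scale (adjusted p = 0.0479). That Abca1 call is fragile: its adjusted p was 0.0726 with a pseudocount of 0.1, 0.0986 after median-of-ratios scaling and 0.0887 without mitochondrial genes. It was also lost in each of the 10 fits that left out 1 of these libraries, where the adjusted p was 0.0665 without EGFR DMSO replicate 3 at the lowest and 0.148 without HBEGF replicate 1 at the highest, and it held with voom (0.0355, where 3.79% of genes were called). Lpl changed in opposite directions, by -0.31 and 0.63, a difference of -0.94 ± 0.18 SE (adjusted p = 0.0108). Lpl passed the filter only through EGFR DMSO replicate 1 and HBEGF withdrawal replicate 2, whose high values favour this difference. Voom, with its own filter on reads, gave -2.08 ± 0.34 SE (adjusted p = 0.000745). The limma p-values of Lpl here are a description, and fits without a library kept the same filter. The Lpl difference was called without each of the 10 libraries in turn, with an adjusted p between 0.0012 and 0.0467, but not with the replicate number as a block (0.0617). Apoe (0.49 ± 0.47 SE, adjusted p = 0.68), Clu (0.67 ± 0.58, 0.635) and Pltp (-0.54 ± 0.17, 0.106) were not shown to differ between the treatments.

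**Figure D4:**
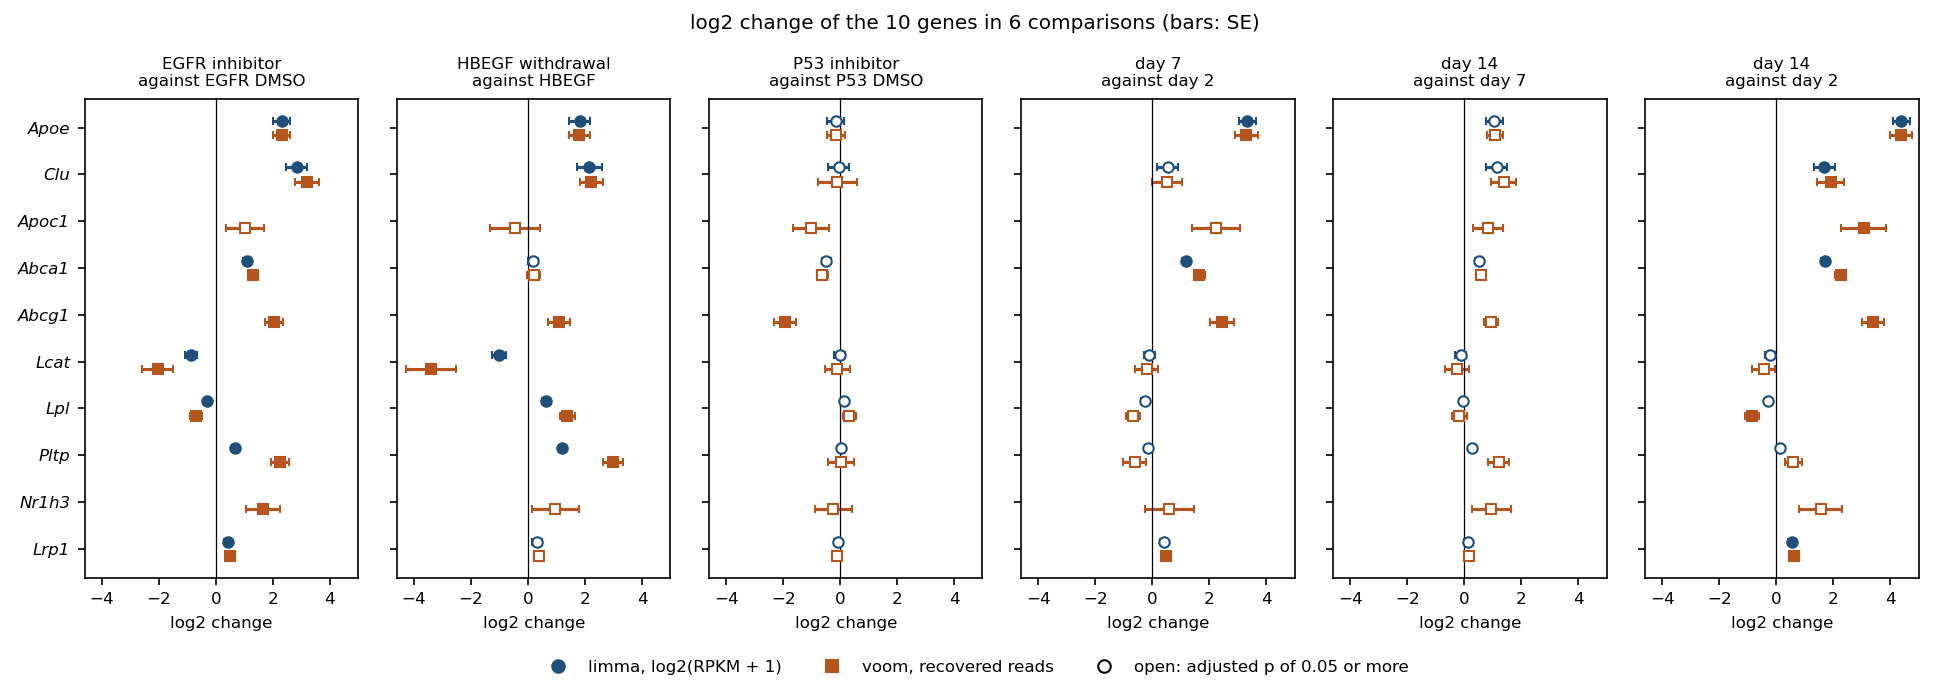
log2 change ± SE of the 10 genes in 6 comparisons, from limma on log2(RPKM + 1) (blue circles, the 7 genes that passed the filter) and voom on recovered reads (orange squares, all 10); open symbols have an adjusted p of 0.05 or more. Lpl lies on opposite sides of 0 for the EGFR inhibitor (-0.31) and HBEGF withdrawal (0.63), and all limma symbols are open for the P53 inhibitor and for day 14 against day 7.

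Days 2, 7 and 14 were compared to follow the genes as the cultures age. The 3 comparisons share libraries and are not independent. Apoe, Abca1 and Abcg1 rose from day 2 to day 7 and were highest on day 14, Clu and Lrp1 were higher on day 14 than on day 2, and Lcat, Pltp and Nr1h3 were not called in any of the 3. From day 2 to day 7, 2 of the 7 members tested were called, both higher, where 13.7% of all tested genes were called and 4.12% were higher. From day 2 to day 14, 4 of the 7 were called, all higher, against 23.2% of all genes called and 5.55% higher. From day 7 to day 14 limma called 0 of the 7 (4 had an unadjusted p below 0.05) and 0.137% of genes, which is 19 genes, with 1483 at an unadjusted p below 0.05. Voom over all 10 members called 4, 7 and 0 in these comparisons, against 16.5%, 28.2% and 0.633% of genes. The 4 were higher, where 5.59% of genes were. Of the 7, all but Lpl were higher, 6 genes, where 8.24% of genes were. After median-of-ratios scaling all calls divided into 665 higher and 763 lower for day 7 and 1195 and 1160 for day 14 against day 2, in place of 571 and 1328, and 769 and 2439. For day 14 against day 7 they went from 7 and 12 to 15 and 3. The median change of the 2354 well expressed genes from day 2 to day 14 was -0.20 as deposited and -0.02 after that scaling.

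Other measures moved with the days as well. The microglia or macrophage list summed to 4.04 to 5.76 RPKM on day 2, 1.99 to 3.22 on day 7 and 1.33 to 2.16 on day 14. The pericyte or smooth muscle list summed to 1.70 to 3.33, 4.47 to 14.1 and 4.64 to 10.4, most of it Acta2 (means of 1.63, 6.485 and 6.18). Acta2 and Tagln, 2 of its 3 tested genes, were called higher on both later days than on day 2. Tagln passed the filter only through day 7 and day 14 libraries, so its higher level there is a description. Mitochondrial ribosomal RNA took 14.5%, 19.2% and 21.8% of reads. The part of the marker shifts in the changes over time was not tested.

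Apoe had the widest span in time of the 10 genes. It read 29.3, 13.3 and 15.3 RPKM on day 2, then 196, 158 and 230.3 on day 7, and 622, 448 and 232 on day 14. Every later library was above every day 2 library, and the lowest day 14 library, replicate 3, lay just above the highest day 7 library. The rise was 10.1-fold by day 7 (log2 change 3.33 ± 0.30 SE, adjusted p = 1.912e-06) and 22.5-fold by day 14 (4.39 ± 0.30, adjusted p = 3.803e-08). Between days 7 and 14 the 2.23-fold difference was not called (log2 change 1.06 ± 0.30 SE, adjusted p = 0.195). Without day 14 replicate 3 it was called (1.45, adjusted p = 0.0409).

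Clu showed 4.08, 2.62 and 1.75 RPKM on day 2, with 4.39, 1.78 and 9.62 on day 7 and 18.3, 8.06 and 8.69 on day 14. Days 2 and 7 overlapped, and day 14 was clear of day 2 by 4.15-fold (log2 change 1.69 ± 0.37 SE, adjusted p = 0.00284). When the day libraries were fitted alone the Clu adjusted p was 0.079. Apoc1 was at the limit of detection on day 2 (2, 1 and 1 reads) and had 7, 10 and 8 reads on day 7 and 18, 22 and 11 on day 14. In RPKM the mean of Apoc1 went from 0.0687 ± 0.0039 (SD, n = 3) to 0.765 ± 0.169 on day 14, and no library overlapped. That change was called by voom (log2 change 3.07 ± 0.80 SE, adjusted p = 0.00402) and by limma without the filter (adjusted p = 0.0142), the latter not without day 14 replicate 1 (0.0604) or day 14 replicate 2 (0.051).

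Abca1 climbed from 1.74, 0.995 and 1.79 RPKM on day 2 to 5.33, 4.61 and 4.06 on day 7 and 9.87, 6.42 and 5.62 on day 14. No 2 days overlapped. The rise was 3.09-fold by day 7 (log2 change 1.19 ± 0.15 SE, adjusted p = 5.29e-05) and 4.84-fold by day 14 (1.71 ± 0.15, adjusted p = 4.187e-07), while day 14 against day 7 was not called (0.52 ± 0.15, adjusted p = 0.194). Abcg1 rose from 0.0444, 0.0412 and 0.0875 RPKM on day 2 to 0.258, 0.280 and 0.356 on day 7 and 0.796, 0.655 and 0.307 on day 14. Its day 7 and day 14 libraries overlapped through day 14 replicate 3. By voom Abcg1 was 5.16-fold higher on day 7 (log2 change 2.46 ± 0.42 SE, adjusted p = 0.000134) and 10.2-fold higher on day 14 than on day 2 (3.40 ± 0.40, adjusted p = 2.478e-07). Without day 14 replicate 3 Abcg1 was also called between days 7 and 14 (voom adjusted p = 0.000129). Limma without the filter called the Abcg1 rise to day 7 (adjusted p = 0.0327), but without any 1 of the 6 libraries of days 2 and 7 it did not, with an adjusted p from 0.054 without day 2 replicate 3 to 0.115 without day 7 replicate 3.

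Lrp1 had the smallest fold of the 4 genes that limma called from day 2 to day 14. It measured 4.87, 3.06 and 3.49 RPKM on day 2, 5.50, 4.74 and 5.78 on day 7 and 7.92, 5.97 and 4.43 on day 14. Neighbouring days overlapped, and so did days 2 and 14. Lrp1 was called 1.60-fold higher on day 14 than on day 2 (log2 change 0.55 ± 0.14 SE, adjusted p = 0.00852), but not without day 14 replicate 1 (0.0648), day 2 replicate 2 (0.0581) or with the day libraries alone (0.129). At day 7 Lrp1 just missed the threshold (adjusted p = 0.0612). It passed there after median-of-ratios scaling (0.0406), without mitochondrial genes (0.0347), with a filter of 5 RPKM (0.0482), with voom (0.0474) and without day 2 replicate 1 (0.0147). Lpl was 0.700, 0.783 and 0.729 RPKM on day 2, above all libraries of days 7 (0.401 to 0.505) and 14 (0.357 to 0.521). Its 1.78-fold lower level on day 14 was not called by limma (log2 change -0.30 ± 0.11 SE, adjusted p = 0.0674). Voom called Lpl (-0.85 ± 0.24, adjusted p = 0.00768), as did limma with a pseudocount of 0.1 (0.0304). Lcat stayed between 0.739 and 1.59 RPKM over the 9 day libraries, Pltp between 0.103 and 0.493, and Nr1h3 between 0 and 0.191.

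The P53 inhibitor was compared with its own DMSO libraries. Limma called 0 of the 7 members tested and 0.181% of all genes, which is 25 genes, and 1 member, Abca1, and 1128 genes had an unadjusted p below 0.05. Voom called 1 of the 10 members, Abcg1, lower, where 0.660% of all genes were called (0.500% lower). Several marker sums were lower with the P53 inhibitor and did not overlap: 134.6 to 135 RPKM against 168.5 to 171 for astrocytes, 3.75 to 4.21 against 5.75 to 6.22 for oligodendrocytes, 1.17 to 1.40 against 2.32 to 2.68 for pericytes or smooth muscle, 0.704 to 0.811 against 1.61 to 1.94 for fibroblasts or meninges and 0.607 to 0.692 against 0.897 to 1.02 for neurons. The oligodendrocyte precursor, microglia or macrophage, endothelial and choroid plexus or ependymal sums overlapped. No gene of these lists was called, and the part of these shifts in the results was not tested. The transporters were the members with the clearest separation. Abcg1 stood at 0.0578, 0.0660 and 0.0622 RPKM with the inhibitor and at 0.292, 0.217 and 0.223 in DMSO, and the inhibitor libraries overlapped those of day 2 in level. The 3.94-fold difference rests on 90 reads against 235 (voom log2 change -1.93 ± 0.38 SE, adjusted p = 0.0119). Limma on log2(RPKM + 1) without the filter did not call Abcg1 (-0.23 ± 0.08, adjusted p = 0.515). The voom call held without P53 DMSO replicate 2 (adjusted p = 0.0333) or replicate 3 (0.0405). It did not hold for Abcg1 without P53 DMSO replicate 1 (0.0567) or without P53 inhibitor replicate 1 (0.102), 2 (0.111) or 3 (0.0534).

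Abca1 read 2.59, 2.70 and 2.65 RPKM with the P53 inhibitor against 4.08, 3.89 and 4.31 in DMSO. The 2 sets of libraries were well apart, a 1.55-fold difference, but the change was not called (log2 change -0.48 ± 0.15 SE, adjusted p = 0.248). Apoe, at 119, 147 and 124 RPKM against 141, 138 and 155, overlapped. Clu did too, at 1.28, 1.18 and 1.38 against 1.197, 1.44 and 1.41, and its level in both P53 groups was the lowest of any group. Lrp1 was slightly but separately lower, at 5.45, 5.50 and 5.68 against 5.80, 6.04 and 6.01 (adjusted p = 0.954). Lcat, Lpl, Pltp and Nr1h3 overlapped between the P53 groups, with adjusted p from 0.849 to 1. Apoc1 did not overlap, at 0.172 to 0.310 against 0.312 to 0.733 RPKM, on 18 reads against 26 (adjusted p = 0.906 without the filter).

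Across all 9 groups the order of the means differed between genes. Apoe ran from 520.3 ± 16.7 (SD, n = 3) with the EGFR inhibitor through day 14 (434 ± 195) to withdrawal (391 ± 48.3, n = 2), whose libraries overlapped in that order. Day 7 (194 ± 36.3) was well apart from withdrawal, with a highest library of 230.3 against a lowest of 357, but just below day 14 replicate 3 (232). Its lowest library, 157.7, was close to the highest of P53 DMSO, 155. Both P53 groups, HBEGF and EGFR DMSO (145 to 105) overlapped as neighbours, and day 2 stood alone at 19.3 ± 8.72. Abca1 had the same group at each end, with EGFR inhibitor (9.13 ± 0.44) and day 14 (7.30 ± 2.26) overlapping at the top, day 2 (1.51 ± 0.45) at the bottom and the P53 inhibitor (2.65 ± 0.06) next to it, apart from both neighbours. For Clu and Pltp withdrawal and EGFR inhibitor were the 2 highest groups, apart from each other and from the rest. Lcat was lowest in these same 2 groups, but none of its 8 neighbouring pairs in the order was apart. Neither was any pair for Nr1h3 or Lrp1.

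Other genes of lipid transport were read from lists of related genes. None of 18 other apolipoproteins passed the filter. Of 20 lipoprotein receptors and partners 8 were tested. With the EGFR inhibitor 4 of the 8 rose (Lrp4, Sort1, Lrp8 and Lrpap1), and Scarb1 and Vldlr were among those that fell. Of all tested genes 16.3% were called higher and 22.2% lower there. After withdrawal Sort1 and Lrp4 rose, and Vldlr was among those that fell, where 10.0% of all genes were called higher and 22.5% lower. Lrp8 fell from day 2 to day 7 and from day 2 to day 14, Lrpap1 was higher on day 14 than on day 2, and Lrp8, a reelin and apoE receptor, was the 1 gene called from day 7 to day 14 (from 1.39 ± 0.11 to 0.947 ± 0.109 RPKM, adjusted p = 0.0424).

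Of 24 genes of lipases, lipid storage and lysosomal cholesterol 11 were tested. With the EGFR inhibitor 4 rose (Angptl4, Lamp2, Lamp1 and Pnpla2) and 1 fell (Stard4), and after withdrawal 6 rose and the same 1 fell. Of all genes 16.3% were called higher and 22.2% lower with the inhibitor, and 10.0% and 22.5% after withdrawal. Angptl4, an inhibitor of lipoprotein lipase, passed the filter only through the EGFR inhibitor and withdrawal libraries, where it is high. It went from 0.0290 ± 0.0253 to 4.44 ± 0.82 RPKM with the EGFR inhibitor (log2 change 2.39 ± 0.15 SE, adjusted p = 5.806e-09) and from 0.117 ± 0.136 to 2.43 ± 1.23 after withdrawal (1.58 ± 0.18, adjusted p = 6.136e-06). Stard4, a carrier of cholesterol inside the cell, fell from 9.15 ± 1.001 to 1.06 ± 0.23 RPKM with the inhibitor (adjusted p = 2.013e-07). Lamp2 and Npc2 rose from day 2 to day 7. By day 14 there were 4 increases (Lamp2, Lamp1, Lpcat3 and Npc2) and 1 decrease (Stard4) against day 2. In that comparison 23.2% of all genes were called and 5.55% were higher. The list medians were 0.25, 0.45 and 0.11 for the inhibitor, withdrawal and day 14 against day 2, with -0.02, -0.10 and -0.11 for all genes.

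Among 20 partners of LXR and oxysterol enzymes 6 were tested. Nr1h2, which encodes LXR beta, stood at 4.94 ± 0.81 RPKM in EGFR DMSO and rose with the inhibitor to 6.84 ± 0.66 (log2 change 0.41 ± 0.14 SE, adjusted p = 0.0245) and after withdrawal to 8.19 ± 0.80 from 4.595 ± 0.84 (0.72 ± 0.17, adjusted p = 0.00285). Srebf1, a known LXR target that drives fatty acid synthesis, moved against Apoe with the EGFR inhibitor and after withdrawal. It fell from 10.2 ± 0.8 to 4.09 ± 0.10 RPKM with the EGFR inhibitor (log2 change -1.13 ± 0.19 SE, adjusted p = 0.000163) and after withdrawal (-0.74 ± 0.24, adjusted p = 0.023), and rose from day 2 to day 14 (0.82 ± 0.19, adjusted p = 0.00487). Rxrb rose with the EGFR inhibitor, Ppargc1a rose from day 2 to days 7 and 14, and Ncor1 fell from day 2 to day 14. Of 19 other lipid transporters of the ABC family 6 were tested. Abcd3, a peroxisomal transporter, fell with the inhibitor and after withdrawal, Abca3 rose with the inhibitor, Abca2 and Abcd4 were among those that rose after withdrawal, and none was called between days. The P53 comparison had 0 calls in these lists.

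The genes whose levels followed each member most closely over the 25 libraries were taken from 1527 genes whose mean RPKM was 5 or more, by Pearson correlation of log2(RPKM + 1). These libraries share treatments and depth, so the values describe likeness only. Apoe was most like Ldhb (r = 0.951), Aqp4 (0.943) and Asrgl1 (0.934), and Abca1 was most like Asrgl1 (0.972), Aqp4 (0.955) and Ttyh1 (0.948). Asrgl1 and the astrocyte water channel gene Aqp4 were thus among the nearest 3 of both. Clu was most like Kcne1l (0.972), Ctgf (0.968) and Prdx6 (0.958). Pltp was most like Foxj1 (0.942), Igfbp5 (0.940) and Lamb2 (0.933). Lcat had Arf4 (0.876), Mmgt1 (0.851) and Fzd7 (0.845), and Lrp1 had Sesn3 (0.864), Malat1 (0.851) and Hepacam (0.846). Lpl had no close match, with Gng3 (0.629), Rpl15 (0.626) and Dusp1 (0.608) nearest.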

How the data were processed

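RNA was measured by sequencing in 25 libraries of 9 groups. The authors deposited 1 table of RPKM. Per the submitters' processing notes reads were aligned to GRCm38 with STAR and counted with HTSeq, and edgeR and limma were used; no source used here gives their versions, the annotation or the strand setting. Per the labels' protocols total RNA was amplified to cDNA with an Ovation kit and made into libraries with a NEBNext Ultra kit.

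RPKM times the whole gene span (GENCODE M21, 98.68% of entries matched) summed to between 999128 and 1002611 in each library, while exon length gave 377054 to 519436. The span was therefore taken as the authors' divisor. Read numbers recovered with it were whole, within 0.1, for 99.0 to 99.3% of values of up to 20 reads.

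One limma 3.58.1 fit (R 4.3.3; trend and robust empirical Bayes) of log2(RPKM + 1) gave each of the 9 groups a mean, with 16 residual degrees of freedom, after a filter of RPKM 1 in at least 2 libraries. The Benjamini-Hochberg adjustment ran over 13850 genes within each of 6 comparisons and the difference of 2 of them. Voom used genes with at least 10 reads in at least 2 libraries. All p-values come from limma or its voom, and p-values in brackets that follow an adjusted one are also adjusted. Alternatives were median-of-ratios scaling, a pseudocount of 0.1, filters of 5 RPKM and of none, removal of mitochondrial genes, each experiment fitted alone, a replicate block, voom and leaving out each library. For the 3 members that did not pass the filter, unfiltered versions of these and voom without each library were added after seeing the data. All 10 members are named in each comparison. From each related list up to 4 called genes with the smallest p per comparison were eligible to be named, and the 3 genes most like a tested member are named by correlation, with predicted genes, clones and pseudogenes left out. Same-numbered day 2 and day 14 libraries deviated together from their group means (correlations of 0.152, 0.278 and 0.162), a weak hint of pairing from the data alone. Day 2 with day 7 gave -0.092, 0.093 and -0.156, and replicate 2 of the P53 groups gave 0.153. Libraries of different numbers were not compared in this way, and the main fit assumed no pairing. The members and lists were chosen with earlier results of these data known. Some genes of the lists are not reported here. The code was tested on simulated data. Tables were handled in Python 3.11.15 with numpy 2.4.6 and pandas 2.3.3, and figures drawn with matplotlib 3.10.9.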

Additional observations from a re-analysis of the deposited data

How the results depend on the processing

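Of 1059 values of the 10 genes under alternatives, 962 kept their direction and their side of the threshold, 57 lost a call, 20 gained one and 20 changed sign; all that changed sign had not been called. With a filter of 5 RPKM, which tests fewer genes, 4 members and 2069 genes were called for the EGFR inhibitor, 2 and 1882 for withdrawal, 8 genes for the P53 inhibitor, 825 genes for day 7 and 1267 for day 14 against day 2, and 1 member for the difference. Voom called 8443, 6898 and 119 genes in the 3 treatments (1 member for the P53 inhibitor), 2965 for day 7 (4 members) and 5084 for day 14 (7 members) against day 2, and 114 for day 14 against day 7, where no filter gave 44. With each experiment fitted alone 0 members and 0 genes were called for withdrawal, 190 genes for day 7 and 1287 genes and 2 members for day 14 against day 2, and 0 genes for day 14 against day 7; with fewer libraries the spread is estimated on fewer residual degrees of freedom. The difference between the treatments was called for 1 member with a pseudocount of 0.1, with median-of-ratios scaling and without mitochondrial genes; the cause was not tested.

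Replicate numbers were shared between groups. Outside day 2 with day 14, at least 1 same-numbered pair of each comparison had a correlation of deviations below 0.1 (from -0.238 to 0.153). The main fit assumed no pairing in any comparison. With 2 or 3 libraries per group such values cannot show that libraries are unpaired, and the labels state no pairing. For day 14 against day 2, where the values gave a weak hint of pairing, the replicate block changed no limma call of the 10 genes. The block gave 6 genes for the P53 inhibitor, 7 for day 14 against day 7 and 0 members for the difference, and it took the Lpl call from the EGFR inhibitor (adjusted p = 0.0689).

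Leaving out each library gave 3 to 5 members for withdrawal, 0 to 1 for day 14 against day 7 and 1 to 1 for the difference. Genes called ranged from 2 to 37 for the P53 inhibitor, 938 to 1691 for day 7 against day 2, 0 to 19 for day 14 against day 7 and 2080 to 2995 for day 14 against day 2. Sign changes were seen for Apoc1 after withdrawal (-0.313 to 0.212 without the filter and -1.858 to 0.702 with voom, where leaving out HBEGF replicate 1 gave 0.0895; 0.0126 with median-of-ratios scaling), for Lcat (-0.15 to 0.12; 2.92e-05 with that scaling) and Pltp (-0.0013 to 0.0789) with the P53 inhibitor, for Lcat (-0.28 to 0.0032) and Nr1h3 (-0.0114 to 0.0404 without the filter, -0.148 to 1.113 with voom) between days 2 and 7, for Lrp1 between days 7 and 14 (-0.0403 to 0.318), and in the difference for Lcat (-0.25 to 0.54) and Lrp1 (-0.0449 to 0.209; -0.0424 with median-of-ratios scaling, -0.0251 without mitochondrial genes). Depth limits Apoc1, Nr1h3 and Lcat, whose libraries hold at most 22, 24 and 66 reads.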
